A study of Mus musculus with 6 samples.

Results

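The angiomotins (Amot, Amotl1 and Amotl2) and the Ajuba LIM proteins (Ajuba, Limd1 and Wtip) are scaffold proteins that act on opposite sides of the Hippo pathway. The 6 genes were taken by symbol, through their Ensembl identifiers in GENCODE M21, from the 21603 genes for which expression values were deposited. All 6 were found, and all 6 reached the level set for testing, at least 1 RPKM (reads scaled to gene length and to library size) in at least 3 of the 6 samples, as did 12034 genes in all. The study sequenced ribosome-bound RNA of pericytes, the mural cells that wrap around capillaries, from the lungs of mice at postnatal day 8, in 3 control and 3 Yap1,Wwtr1 iPCKO samples. Yap1 and Wwtr1 encode YAP and TAZ, the transcriptional co-activators that the Hippo kinases restrain, and the question was what their removal from pericytes does to the RNA of these cells. For the genes described here the comparison shows how the RNA of YAP/TAZ regulators stood when YAP and TAZ had been targeted.

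All mice were on a C57BL/6 background and carried the Pdgfrb(BAC)-CreERT2 transgene, a tamoxifen-inducible Cre recombinase driven by regulatory DNA of Pdgfrb, together with an Rpl22 lox/+ allele that adds a haemagglutinin tag to ribosomes after recombination. Control mice were Yap1 lox/+ Wwtr1 lox/+ and therefore lost 1 allele of each gene in recombined cells. Yap1,Wwtr1 iPCKO mice were Yap1 lox/lox Wwtr1 lox/lox. Both groups received tamoxifen in the first days after birth, and tagged ribosomes were precipitated from whole perfused lung. The design text speaks of 3 mice, so the errors below are taken as spreads between animals of a group. The Cre acts wherever Pdgfrb is expressed, and RNA that other cells release into the lysate can be carried along.

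Angiomotins sit at tight junctions and on actin filaments. They bind YAP and TAZ directly and hold them outside the nucleus, and they can also activate the LATS kinases. Ajuba LIM proteins bind the LATS kinases at adherens junctions under tension and keep them from phosphorylating YAP and TAZ, so a high level favours YAP/TAZ activity. TEAD transcription factors are the DNA-binding partners through which YAP and TAZ reach their target genes, and Amotl2 is a known target among the 6.

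The promoters of the 3 members that were lowest in the iPCKO samples relative to controls are shown because the deleted genes act through TEAD factors. The sequences are RefSeq windows of 300 bases on GRCm38.p6, from 250 bases before to 50 bases after one annotated start, given 5′ to 3′ on the strand of the gene, and capitals mark matches to CATTCC, the core of the TEAD motif, on either strand. The windows are chr9:102717554-102717853 on the plus strand for Amotl2, chr14:54577612-54577911 on the minus strand for Ajuba and chr7:34133219-34133518 on the minus strand for Wtip.
Amotl2: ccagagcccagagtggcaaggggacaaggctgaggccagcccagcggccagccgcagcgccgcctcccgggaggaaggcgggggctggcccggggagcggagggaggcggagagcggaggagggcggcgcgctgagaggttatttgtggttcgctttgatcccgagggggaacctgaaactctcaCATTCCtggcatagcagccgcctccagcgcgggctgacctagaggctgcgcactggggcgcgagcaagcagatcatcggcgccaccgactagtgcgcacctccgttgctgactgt
Ajuba: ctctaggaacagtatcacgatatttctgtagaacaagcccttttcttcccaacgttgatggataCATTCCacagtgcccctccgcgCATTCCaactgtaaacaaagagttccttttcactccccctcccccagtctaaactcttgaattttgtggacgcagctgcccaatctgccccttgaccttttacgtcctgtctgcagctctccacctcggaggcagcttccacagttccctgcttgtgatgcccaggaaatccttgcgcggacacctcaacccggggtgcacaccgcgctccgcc
Wtip: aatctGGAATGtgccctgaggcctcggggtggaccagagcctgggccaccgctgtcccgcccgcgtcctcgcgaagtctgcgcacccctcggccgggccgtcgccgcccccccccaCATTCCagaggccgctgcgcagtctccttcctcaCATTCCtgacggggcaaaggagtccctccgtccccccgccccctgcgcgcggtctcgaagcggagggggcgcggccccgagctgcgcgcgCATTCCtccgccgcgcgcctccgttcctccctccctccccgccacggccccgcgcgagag

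A window was matched for 5 of the 6 members, Limd1 not being among them. Amotl2 held 1 CATTCC match, whose first base lay 65 bases before the start. Ajuba held 2, at 186 and 164 bases before the start. Wtip held 4, at 245 (read as GGAATG on the strand of the gene), 134, 100 and 10 bases before the start. The windows of Amot (chrX:145487590-145487889, minus strand) and Amotl1 (chr9:14614951-14615250, minus strand) held none. The starts used for Amot, Amotl1 and Amotl2 lie inside the annotated genes, downstream of the first annotated start. The Ajuba window lies wholly upstream of the gene as annotated in GENCODE M21. Its 2 matches are therefore farther from the annotated start than from the start used here. Of 32851 promoter windows of the same length, 14.7% held at least 1 match, 1.36% at least 2 and 0.018% at least 4. The AP-1 motif TGANTCA, whose last bases can overlap the first of CATTCC, was found in 7.81% of all windows and in none of the 5. These matches describe letters in 1 window per gene, other starts of the same gene were not searched, and no binding was measured here.

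Of the 6 members, 2 passed both thresholds, a limma adjusted p under 0.01 and a log2 fold change beyond 0.5 in either direction. They were Amotl2 and Ajuba, both lower in iPCKO samples. Of all tested genes, 6.79% passed in either direction, 2.68% as lower and 4.11% as higher. Each family thus had 1 member that fell. Of the remaining 4, Wtip was lower in every iPCKO sample than in any control without passing, whereas the groups overlapped for Amot, Amotl1 and Limd1. Groups did not overlap for 35.5% of tested genes, and in 17.1% all iPCKO samples were the lower ones, so the 3 members without overlap are read against that share. In bulk RNA, fewer cells of a type and less RNA per cell cannot be told apart. Log2 fold changes compare iPCKO samples with controls on the log2(RPKM + 0.1) scale of the limma fit, negative where iPCKO samples were lower, with n = 3 in each group, and the 95% intervals come from the same fit.

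**Figure D1:**
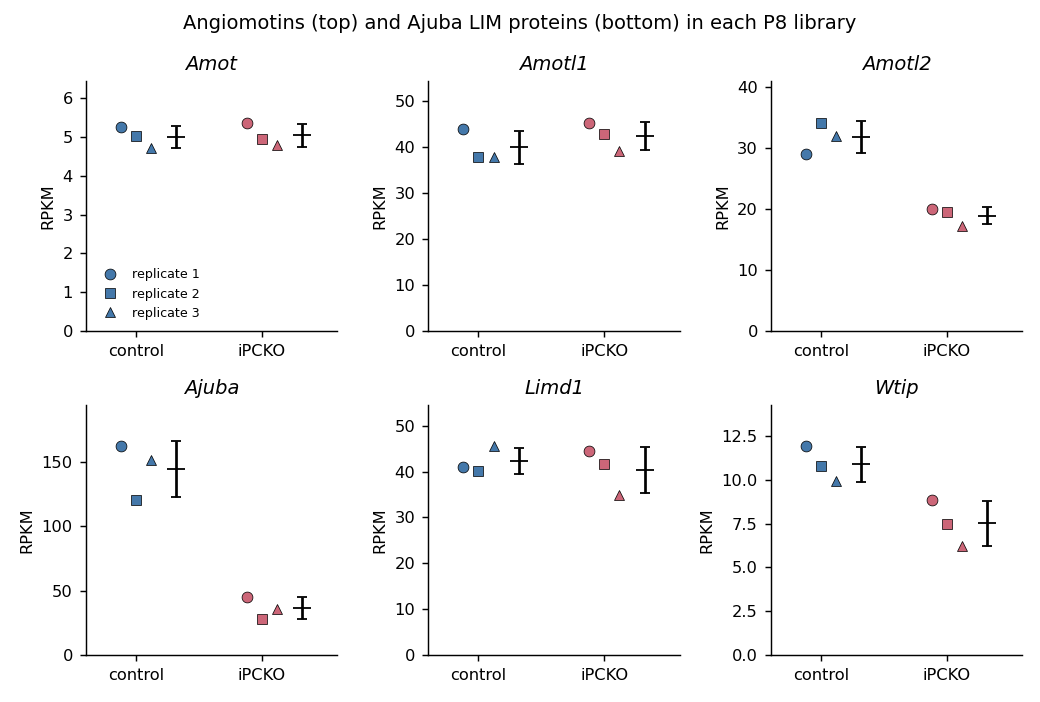
Level of each of the 6 genes in RPKM (vertical axis, from 0, on its own scale for each gene) in the 3 control and 3 Yap1,Wwtr1 iPCKO samples. Points are samples and bars the mean ± SD. All iPCKO points lie under all control points for Amotl2, Ajuba and Wtip, and the groups overlap for Amot, Amotl1 and Limd1.

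Among the angiomotins, Amotl2 (ENSMUSG00000032531, chr9:102716672-102733418 on GRCm38, plus strand) was the member that fell. Its level was 29.0, 34.2 and 32.1 RPKM in controls 1 to 3 and 20.1, 19.5 and 17.3 RPKM in iPCKO samples 1 to 3. The groups were 8.95 RPKM apart, from the lowest control to the highest iPCKO sample. The mean fell from 31.8 ± 2.62 to 19.0 ± 1.45 RPKM (SD), 59.6% of the control level (95% interval 51.2% to 69.8%). The log2 fold change was -0.74 (SE 0.098, limma adjusted p = 0.0016), and 2.53% of tested genes had a lower one. An exact two-sided permutation test of the means gave p = 0.1, the smallest that 3 samples against 3 allow. The call did not hold without control 3, where the log2 fold change was -0.73 and the limma adjusted p = 0.011.

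Amotl1 (ENSMUSG00000013076, chr9:14541966-14645056, minus strand), the most abundant angiomotin in both groups, read 44.0, 37.8 and 37.9 RPKM in controls and 45.3, 42.8 and 39.2 RPKM in iPCKO samples. The ranges overlapped over most of their width. Mean levels were 39.9 ± 3.55 and 42.4 ± 3.07 RPKM, a log2 fold change of 0.09 (SE 0.099, limma adjusted p = 0.59, exact permutation p = 0.3). The 95% interval of the difference ran from 91.0% to 124.4% of the control level and therefore did not hold a fall of the size seen for Amotl2.

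Amot (ENSMUSG00000041688, chrX:145446425-145505181, minus strand), the founding member of the family, first described as a binding partner of angiostatin, was the least abundant of the 6. It was at 5.26, 5.01 and 4.7 RPKM in controls and at 5.36, 4.95 and 4.79 RPKM in iPCKO samples. These values interleave, and the highest and lowest of the 6 differ by less than 1 RPKM. Means were 4.99 ± 0.281 and 5.03 ± 0.292 RPKM, with a log2 fold change of 0.01 (SE 0.097, limma adjusted p = 0.95, exact permutation p = 0.8) and a 95% interval from 86.5% to 117.6% of the control level. At the depths read from the files, these levels correspond to about 573 to 1647 reads per library over 8.4 kb of annotated exons.

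The family's summed level, which can be formed because RPKM is per length, was 78.3, 77.0 and 74.7 RPKM in controls and 70.8, 67.2 and 61.3 RPKM in iPCKO samples. Every iPCKO sum was lower than every control sum, with means of 76.7 ± 1.81 and 66.4 ± 4.76 RPKM, or 86.6% of control (exact permutation p = 0.1). The make-up of the sum also shifted. Shares are not independent of the levels, so their shift restates the fall of Amotl2 beside the overlapping levels of Amotl1 and Amot. Amotl2 supplied 37.1%, 44.4% and 42.9% of it in controls and 28.4%, 29.0% and 28.2% in iPCKO samples. The mean share went from 41.5 ± 3.90% to 28.5 ± 0.390%, and that of Amotl1 from 52.0 ± 3.74% to 63.9 ± 0.201% (exact permutation p = 0.1 for each). The ratio of Amotl1 to Amotl2 was 1.52, 1.1 and 1.18 in controls and 2.26, 2.2 and 2.26 in iPCKO samples. Control ratios were scattered and iPCKO ratios nearly equal, without overlap. By contrast, the ratio of Amotl1 to Amot was 7.99 ± 0.42 and 8.43 ± 0.23, with overlapping groups (exact permutation p = 0.2).

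Ajuba (ENSMUSG00000022178, chr14:54567472-54577558, minus strand) had the largest change of the 6. Controls held 162.2, 120.7 and 151.4 RPKM and iPCKO samples 45.4, 28.1 and 35.6 RPKM. The groups were 75.3 RPKM apart, a gap larger than the highest iPCKO value itself. The mean fell from 144.7 ± 21.5 to 36.3 ± 8.68 RPKM, that is 3.98-fold (25.1% of control, 95% interval 18.7% to 33.1%). On the log2 scale the change was -2.01 (SE 0.18, limma adjusted p = 0.00026, exact permutation p = 0.1), and 35 tested genes, 0.29%, had a lower value. In controls Ajuba stood at the 98.4th percentile of levels among tested genes, and in iPCKO samples at the 88.7th. The call held without any 1 sample, with log2 fold changes from -2.18 to -1.84. Of the 3571 words of 75 bases in its annotated transcripts, 5 also occurred in transcripts of other genes, and no such word was shared between the 6 members.

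Limd1 (ENSMUSG00000025239, chr9:123478706-123521552, plus strand), which like Ajuba binds LATS kinases and which also takes part in microRNA silencing, was at 41.0, 40.2 and 45.5 RPKM in controls and at 44.5, 41.7 and 34.8 RPKM in iPCKO samples. iPCKO sample 3 was the lowest and control 3 the highest, and the groups overlapped. Means of 42.2 ± 2.87 and 40.3 ± 4.99 RPKM gave a log2 fold change of -0.07 (SE 0.111, limma adjusted p = 0.71, exact permutation p = 0.7). The 95% interval, from 79.8% to 113.3% of control, lay wholly above that of Ajuba.

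Wtip (ENSMUSG00000036459, chr7:34109543-34133268, minus strand), named for its interaction with the Wilms tumour protein WT1, was the least abundant of its family. Its levels were 11.9, 10.8 and 9.93 RPKM in controls and 8.82, 7.49 and 6.22 RPKM in iPCKO samples. The lowest control exceeded the highest iPCKO sample by 1.11 RPKM, which is close to the SD of each group. The means were 10.9 ± 0.981 and 7.51 ± 1.30 RPKM, 69.1% of control (95% interval 55.6% to 85.2%), with a log2 fold change of -0.54 (SE 0.135, limma adjusted p = 0.03, exact permutation p = 0.1). It thus passed the fold threshold and not that on the adjusted p-value, and 4.66% of tested genes had a lower log2 fold change. Wtip also rested on the fewest reads, about 211 to 820 per library over 2.38 kb of annotated exons.

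The summed level of the Ajuba family was 215.1, 171.7 and 206.8 RPKM in controls and 98.7, 77.3 and 76.6 RPKM in iPCKO samples. All control sums exceeded all iPCKO sums. The mean went from 197.9 ± 23.1 to 84.2 ± 12.6 RPKM, 42.5% of control (exact permutation p = 0.1). Ajuba made up 75.4%, 70.3% and 73.2% of the sum in controls and 46.0%, 36.3% and 46.4% in iPCKO samples. Limd1 went the other way as a share, from 21.5 ± 2.20% to 48.2 ± 5.04% (exact permutation p = 0.1), although its level differed by less than the spread between replicates. The ratio of Ajuba to Limd1 was 3.95, 3.0 and 3.33 in controls and 1.02, 0.67 and 1.02 in iPCKO samples. Ajuba thus exceeded Limd1 in every control, whereas in the iPCKO samples the levels of both were close, or Limd1 was the higher.

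Ordered by level in RPKM, controls read Ajuba, Limd1, Amotl1, Amotl2, Wtip and Amot. Limd1 and Amotl1 were the only neighbours whose ranges overlapped, Limd1 being 1.06-fold higher in the mean and higher in 2 of 3 samples. In iPCKO samples the order was Amotl1, Limd1, Ajuba, Amotl2, Wtip and Amot. There the upper 3 did not separate, since Amotl1 exceeded Limd1 by 1.05-fold and Limd1 exceeded Ajuba by 1.11-fold in the mean, each with overlapping ranges. Amotl1 was above Limd1 in 3 of 3 samples, but Limd1 was above Ajuba in only 1 of 3. Amotl2, Wtip and Amot kept their places in both groups, with no overlap between neighbours.

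**Figure D2:**
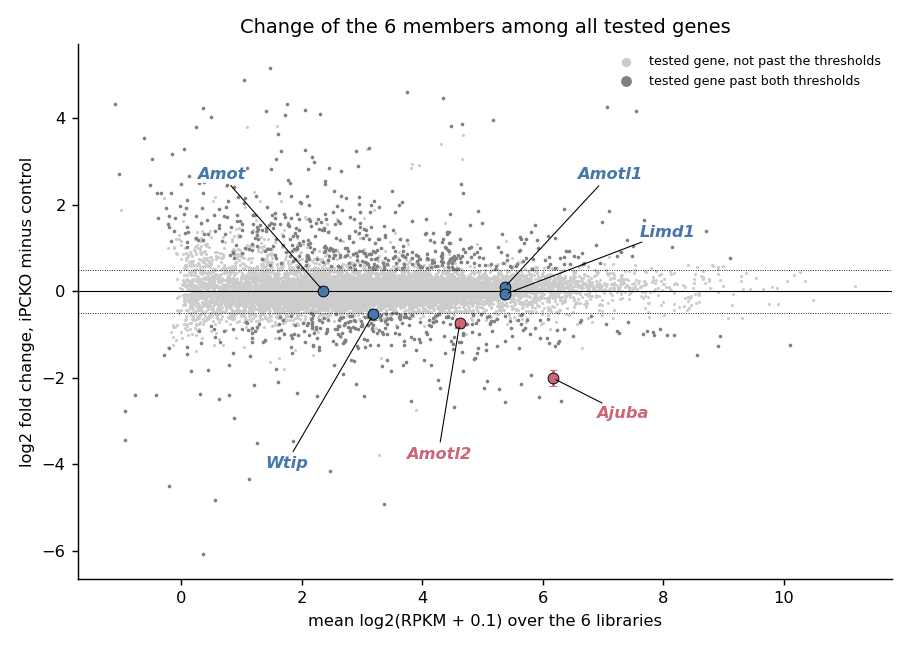
Log2 fold change, iPCKO minus control (vertical axis), against mean log2(RPKM + 0.1) over the 6 samples (horizontal axis) for all tested genes. The 6 members are labelled, with bars for the SE, red where they passed both thresholds and blue where they did not. Ajuba lies among the lowest fold changes of genes at its level and Amotl2 below the dotted line at -0.5, whereas Amot, Amotl1 and Limd1 lie close to 0.

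Genes with which the members work were read from 4 lists. Of the 21 genes of a YAP/TAZ target signature, all tested, 2 fell and none rose, with a median log2 fold change of -0.16 against -0.00 over all tested genes. Amotl2, itself a known target, is a member here and was not counted in this list. Counts of list genes past the thresholds are read against 6.79% of all tested genes in either direction and 2.68% lower, and a list of this size gives no more than a description. Those that fell were Tgfb2, a ligand of the TGF-β receptors (48.2 ± 2.01 to 13.4 ± 1.25 RPKM, log2 fold change -1.84, limma adjusted p = 1.8e-05), and Lats2. Lats2, the kinase bound by both families, was at 50.5, 44.0 and 49.5 RPKM in controls and 21.8, 19.4 and 16.8 RPKM in iPCKO samples, without overlap. Its log2 fold change was -1.31 (SE 0.113, limma adjusted p = 0.0002), between those of Amotl2 and Ajuba.

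Of 25 Hippo kinases, adaptors and transcription factors, Vgll1 and Vgll2 were listed at 0 in all samples and 23 were tested. None rose and 4 fell, Yap1, a deleted gene, being 1 of them, with a median of -0.18. Against the 2.68% of all tested genes that were lower, this remains a count of few genes. Besides Lats2 and Yap1 these were Vgll3, a co-factor of TEAD proteins (4.49 ± 0.503 to 2.22 ± 0.277 RPKM, log2 fold change -0.99, limma adjusted p = 0.0018), and Frmd6, an upstream FERM-domain protein (34.5 ± 2.96 to 23.8 ± 1.99 RPKM, log2 fold change -0.54, limma adjusted p = 0.0089). Yap1 was at 13.2, 11.5 and 12.4 RPKM in controls and 5.76, 5.83 and 5.25 RPKM in iPCKO samples (log2 fold change -1.12, limma adjusted p = 0.00017). Wwtr1, the other deleted gene, was at 71.3, 53.8 and 56.1 RPKM in controls and 63.5, 60.3 and 62.2 RPKM in iPCKO samples (log2 fold change 0.05, limma adjusted p = 0.82). The call of Frmd6 did not hold when any 1 sample was left out (log2 fold change -0.61 to -0.47, limma adjusted p 0.012 to 0.046). The values of Wwtr1 overlapped, so its deletion was not visible in the level over the whole gene. That level also counts reads outside a deleted exon, and single exons were not examined. Controls of the RNA comparison carried only 1 intact allele of each deleted gene. By Western blot, the study reported strongly reduced YAP and TAZ protein in whole-lung lysates of older iPCKO mice, against littermates without Cre. Why Yap1 was lower in the iPCKO samples and Wwtr1 was not was not tested.

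Of 22 junction partners and turnover enzymes of the angiomotins, all tested, 1 passed the thresholds and none fell, with a median of -0.05. The ubiquitin ligases, tankyrases and deubiquitinase that set angiomotin protein levels were on this list and did not pass.

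Of 22 partners of Ajuba and members of the zyxin family, 2 fell and none rose, with a median of -0.07. These were Lats2 and Snai2, a zinc-finger repressor of the Snail family, which went from 13.4, 17.4 and 16.8 RPKM to 9.56, 10.2 and 7.08 RPKM (log2 fold change -0.83, limma adjusted p = 0.0088). Its call did not hold when any 1 sample was left out (-0.94 to -0.67, limma adjusted p 0.011 to 0.04). The related LIM proteins of the zyxin family (Zyx, Lpp, Trip6 and Fblim1) did not pass. Lats2 stands on 3 of the 4 lists and is 1 gene. The 1 of 22 and 2 of 22 genes past the thresholds in the partner lists are read against the 6.79% of all tested genes.

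**Figure D3:**
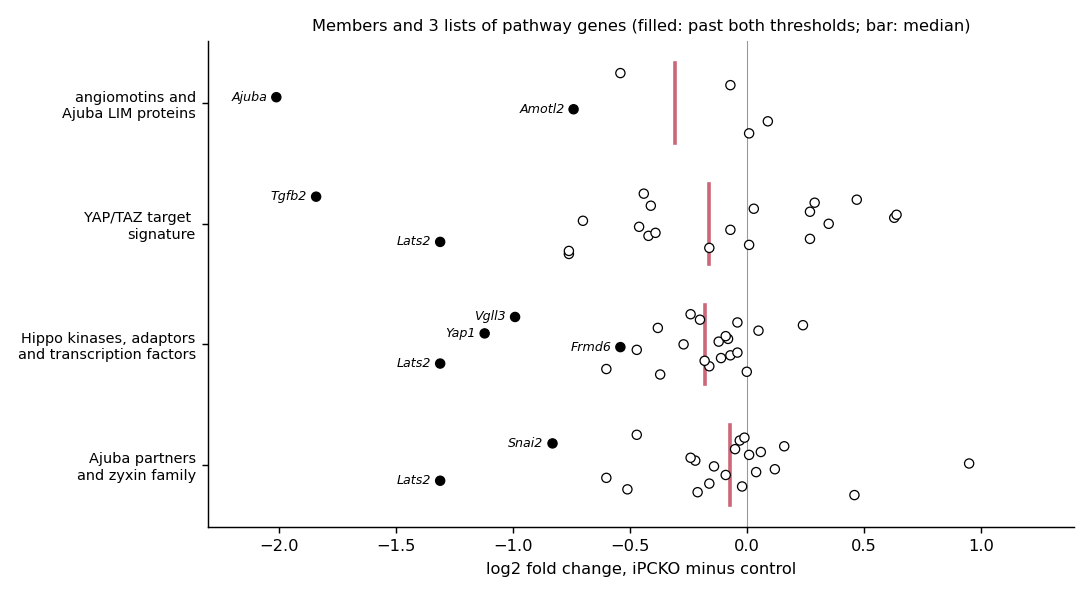
Log2 fold change, iPCKO minus control (horizontal axis), of the 6 members and of the tested genes of 3 lists. The list of angiomotin junction partners and turnover enzymes, where 1 gene passed the thresholds and none fell, is not drawn. Each circle is a gene, filled where it passed both thresholds, and vertical bars are medians. Ajuba, at -2.01, lies left of all genes on these lists, followed by Tgfb2 at -1.84 and Lats2 at -1.31, and no filled circle lies to the right of 0.

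The genes whose profile over the 6 samples was most like that of a member were found by the root mean square difference of log2(RPKM + 0.1), each gene centred on its own mean, among 8197 tested genes with a mean of at least 5 RPKM. For Ajuba they were Ehd3 (difference 0.131; 69.1 ± 8.48 to 16.3 ± 1.63 RPKM), Gucy1a2 (0.135) and Aif1l (0.159), with log2 fold changes of -2.07, -2.24 and -1.72. For Amotl2 they were Rhobtb3 (0.063), Dusp8 (0.064) and Ghr (0.071), with -0.75, -0.66 and -0.72. They were chosen over the same 6 samples, group difference included, so their fold changes resemble those of the members by construction. For Wtip they were Sox4 (0.044), Atp9a (0.046) and Ulk2 (0.066), with -0.50, -0.54 and -0.51. Nearest to Amot were Bmi1, Mum1 and Nploc4, among the nearest to Amotl1 were Fam129b and Cant1, and nearest to Limd1 were 2700062C07Rik, Taf7 and Prkacb, all within 0.035. The nearest differences were larger for Ajuba and Amotl2 than for the flat profiles. The measure is not scaled to the size of a change, so that contrast says little about the genes themselves.

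The libraries differed in other ways that moved with the groups. Pericyte markers were present in every library (summed level of 10 markers 3917 to 4656 RPKM in controls and 4058 to 4742 RPKM in iPCKO samples). Past the thresholds, 3 were higher (Cspg4, Kcnj8 and Abcc9, log2 fold changes 1.06, 1.03 and 1.15) and 1 was lower (Notch3, -0.94). The other 6 did not pass, among them Pdgfrb (1533 ± 151 and 1337 ± 131 RPKM). Of 10 leukocyte markers 6 were higher (60.2 to 89.4 RPKM in controls, 149 to 244 RPKM in iPCKO samples), and of 8 neutrophil markers 6 were higher (82.6 to 120 and 436 to 4740 RPKM). The 10 epithelial markers summed to 553 to 635 and 808 to 857 RPKM with 1 higher, the 10 endothelial markers to 155 to 164 and 165 to 178 RPKM with 2 higher, and the 8 smooth muscle markers to 1375 to 1546 and 1508 to 1626 RPKM with 2 higher and 1 lower. The 8 fibroblast (439 to 577 and 499 to 753 RPKM) and 5 erythrocyte markers (1548 to 1907 and 986 to 4502 RPKM) had none past the thresholds, and no marker was at 0 in all libraries. The part of these cells in the levels of the members was not tested.

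Y-linked transcripts also moved with the groups, and the labels do not give the sex of the mice. The mean log2(RPKM + 0.1) of 4 Y-linked genes was 2.95 and 3.17 in controls 1 and 3, -3.14 in control 2, and -3.21 to -3.11 in the iPCKO samples, so Y-linked transcripts were found in 2 controls only. Control 2 and the iPCKO samples can be set side by side without this difference. Ajuba was then at 120.7 RPKM against 28.1 to 45.4 RPKM, Amotl2 at 34.2 against 17.3 to 20.1 RPKM and Wtip at 10.8 against 6.22 to 8.82 RPKM. Groups did not overlap for these 3 genes in the full comparison, so any single control kept had to lie above the iPCKO samples. The direction within these libraries is therefore no separate check. The log2 fold changes of the 3 genes were -1.76, -0.85 and -0.53. With a single control left, the spread in the fit came from the iPCKO samples alone, and the control was assumed to vary like them. Their limma adjusted p-values were 0.036, 0.04 and 0.25, and 17 genes in all passed, none of them a member or on the 4 lists, so the absence of a call there says little about any of these genes.

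**Figure D4:**
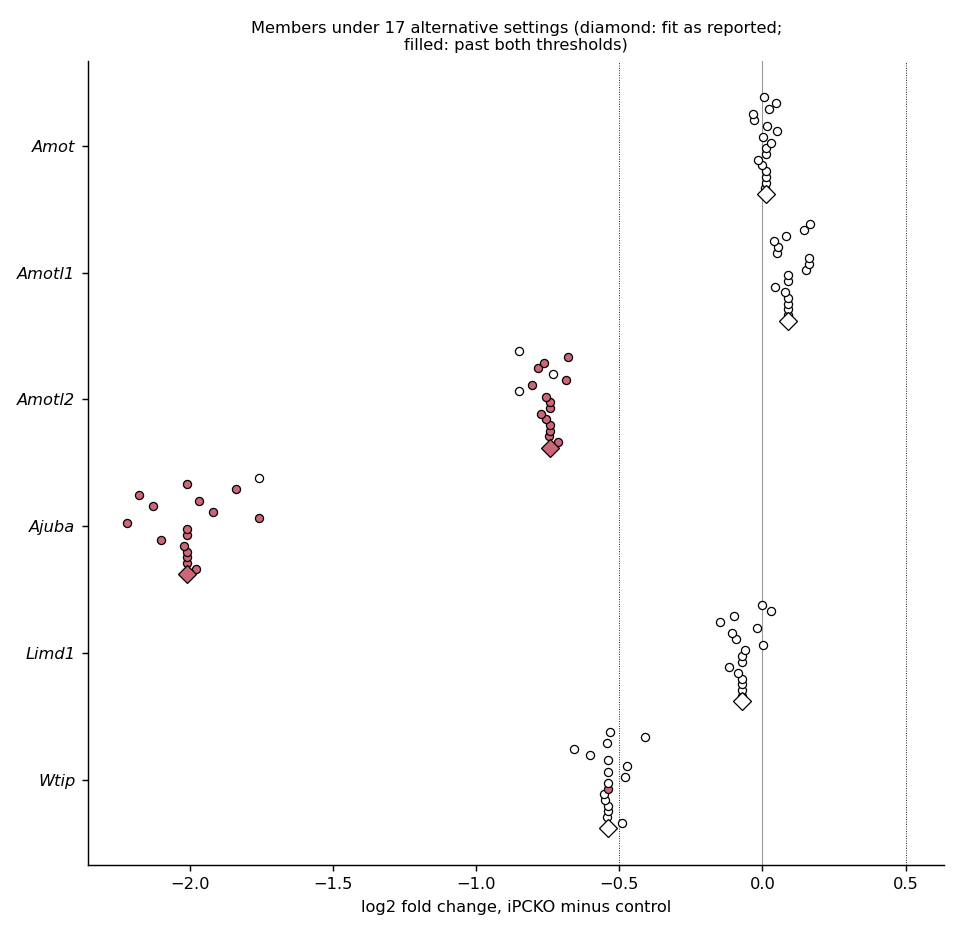
Log2 fold change of each member, iPCKO minus control (horizontal axis), in the analysis as described (diamonds) and under 17 alternative settings (circles), filled where both thresholds were passed. Dotted lines mark -0.5 and 0.5. Ajuba stays between -2.22 and -1.76 and Amotl2 between -0.85 and -0.68, with 1 and 3 open circles respectively, and Amot and Limd1 lie on both sides of 0.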

How the data were processed

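RNA-seq libraries of ribosome-bound RNA from 6 lungs were grouped by the labels into 3 control and 3 Yap1,Wwtr1 iPCKO samples. The authors used stranded total-RNA libraries, TopHat on mm10 (GRCm38) for mapping, HTSeq 0.6.1 for counting and DESeq2 for their own tests, and they deposited 1 table of RPKM per sample. The gene length behind the deposited RPKM is not given in the sources used here, and an error in it would scale a gene equally in all samples. Symbols, coordinates and exon lengths came from GENCODE M21.

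Values were not scaled further. Genes that reached 1 RPKM in 3 or more samples were tested with limma 3.58.1 in R 4.3.3 on log2(RPKM + 0.1), letting the prior variance follow intensity, and p-values were adjusted by Benjamini-Hochberg over all 12034 genes. The thresholds (adjusted p 0.01, log2 fold change 0.5 in size) were taken from the study's methods. Single values were compared by exact two-sided permutation tests in scipy 1.17.1. The fit was tested on simulated data. The members and gene lists were chosen with earlier results of these data known. All 6 members are named, and of the lists the genes past the thresholds, the deleted genes and the 3 nearest profiles per member. Of these, 1 list gene and 1 nearest profile are not reported here.

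Depth was estimated from the smallest RPKM steps of single-transcript genes. It came to 17.4 to 34.7 M reads in controls and 14.2 to 39.6 M reads in iPCKO samples. Since 75.4% to 77.1% of such values lay within 0.02 of a whole read, and lengths are not known, no counts were rebuilt, and reads per member are approximate. The numbers 1 to 3 were not shown to pair samples (correlations of deviations for equal numbers 0.24, 0.09 and 0.02). Alternatives covered the pseudocount, the filter, scaling, the replicate block, the trend, sample weights, a Y-linked covariate, each sample left out and an adjusted p of 0.05.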

Additional observations from a re-analysis of the deposited data

How the results depend on the processing

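Ajuba kept its direction and its call under 16 of 17 alternatives (log2 fold change -2.22 to -1.76) and Amotl2 under 14 (-0.81 to -0.68). Restricting the fit to the libraries without Y-linked transcripts, an alternative chosen after seeing the data that leaves 1 control, ended both calls (Ajuba -1.76, Amotl2 -0.85), left 0 members, 0 genes of each list and 17 of all genes past the thresholds, and gave a difference of -87.5 RPKM in the summed Ajuba family and of -15.9 points in the Amotl2 share. That setting has fewer samples by construction and takes its spread from the iPCKO group alone. With the Y-linked level as a covariate Amotl2 missed the threshold (-0.85, limma adjusted p = 0.021), Limd1 turned to 0.0026, and 1 member, 2 Hippo genes, 0 angiomotin partners, 1 Ajuba partner and 119 of all genes passed, against 2, 4, 1, 2 and 817. The cause was not tested.

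With the replicate block Wtip passed (-0.54, limma adjusted p = 0.0079), 4 target genes passed against 2, and 922 of all genes did, but the equal numbers were not shown to pair samples. Same-numbered deviations correlated at 0.24, 0.09 and 0.02, other pairs at -0.30 to 0.27. Quantile normalization gave 4 target genes and 4 Ajuba partners, sample weights 6 and 6 (1590 of all genes), an adjusted p below 0.05 5 and 5 (1313 of all genes), and 1 Ajuba partner passed without the filter or without the trend. Amot, at 0.0123, changed sign under median-ratio scaling (-7.14e-05) and quantile normalization (-0.0145).

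Leaving out each sample gave log2 fold changes of -0.0326 to 0.0504 for Amot (negative without control 3 or iPCKO 1), -0.806 to -0.679 for Amotl2, -0.147 to 0.03 for Limd1 (positive without iPCKO 3), 1 to 2 members (1 without control 3) and 1 to 2 Ajuba partners. Of all genes, 544 passed without control 2, 363 without control 3, 373 without iPCKO 2 and 455 without iPCKO 3. Wtip had the fewest approximate reads, 211 to 820 per library, and whether depth limited its result was not tested.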
